A study of Mus musculus with 3 samples.

Results

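The arterial endothelial cells of the E15.5 embryo were 859 of the 195915 kept cells of 1 sagittal section, or 0.438%, and 7.33% of the 11711 endothelial cells in it (95% interval 6.87 to 7.82%). They were chosen by their counts. A cell with at least 10 counts of panel genes was kept, and it passed the endothelial gate with a sum of at least 3 counts over Pecam1, Cdh5, Kdr, Emcn and Cldn5, at least 2 of these genes being detected. A gated cell was taken as arterial with a sum of at least 2 counts over Gja4, Gja5 and Dll4, at least 2 of these detected, and a sum below 3 over the brain capillary transporter genes Mfsd2a, Slco1c1 and Slc38a5. The other 10852 gated cells served for comparison. The study imaged wild-type mouse embryos by MERFISH, which images and counts individual RNA molecules of a chosen gene panel inside tissue sections. It covered 2 whole-embryo sections from 2 embryos at E9.5 (1077 and 6835 cells) and this section from 1 embryo at E15.5 (219525 cells), 227437 cells in all, with no treatment in any group. The panel held 296 genes, and 11 of them make up the rule.

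Arteries carry blood away from the heart and differ from veins and capillaries in the gene programme of their inner lining. In the embryo, VEGF and Notch signalling set that programme: Dll4 and Jag1 are ligands on the cell surface, Notch1 and Notch4 are receptors, and genes of the Hey family are targets. Blood flow acts on the same cells through the ALK1 receptor, and the connexins Gja4 and Gja5 couple arterial endothelial cells to each other. As an artery matures it gains a coat of smooth muscle.

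The E15.5 stage rests on 1 section of 1 embryo, so there is no replicate and no test, and cells of 1 section are not replicates. Values are given as counts per 10000 counts of the 285 panel genes outside the rule. A fold is the ratio of these shares, and every interval is an exact 95% interval that covers counting error only. Kept cells of the E15.5 section held 21227345 counts. Arterial cells had a median of 195 counts (quartiles 131 and 281.5) and the other gated cells 151 (96 and 227), and their median volumes were 985 and 846 in the deposited unit, which the file headers do not name. Blank codes, which no gene carries, made up 0.305% of counts. In E9.5 section 2 the broadly expressed gene Gnas was scarce in part of the tissue: 44.0% of kept cells lay in areas where it was below 100 per 10000 over the 50 nearest kept cells, against 0.309% at E15.5. No cell identifier was shared between the sections.

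The values that chose the cells are a description. Gja4 was detected in 86.5% of the arterial cells, Gja5 in 71.6% and Dll4 in 67.3%, against 11.1%, 6.38% and 11.4% of the other gated cells. In cells outside the endothelial gate, which had a median of 80 counts, the shares were 4.09%, 5.92% and 1.74%, so a Gja5 count was about as frequent outside the gate as among the other gated cells. The sum over the 3 genes had a median of 4 and reached 43. All 3 genes were detected in 218 cells, Gja4 and Gja5 alone in 281, Gja4 and Dll4 alone in 244, and Gja5 and Dll4 alone in 116. The chance of meeting the rule grew with depth. Of gated cells with 10 to 49 counts 1.32% were arterial, of those with at least 100 but under 200 counts 7.16%, and of those with 400 or more 13.2% (10.3 to 16.4%). The brain transporter limit removed 104 gated cells that met the arterial sum, out of 838 gated cells with a brain transporter sum of 3 or more, called brain-type here.

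**Figure D1:**
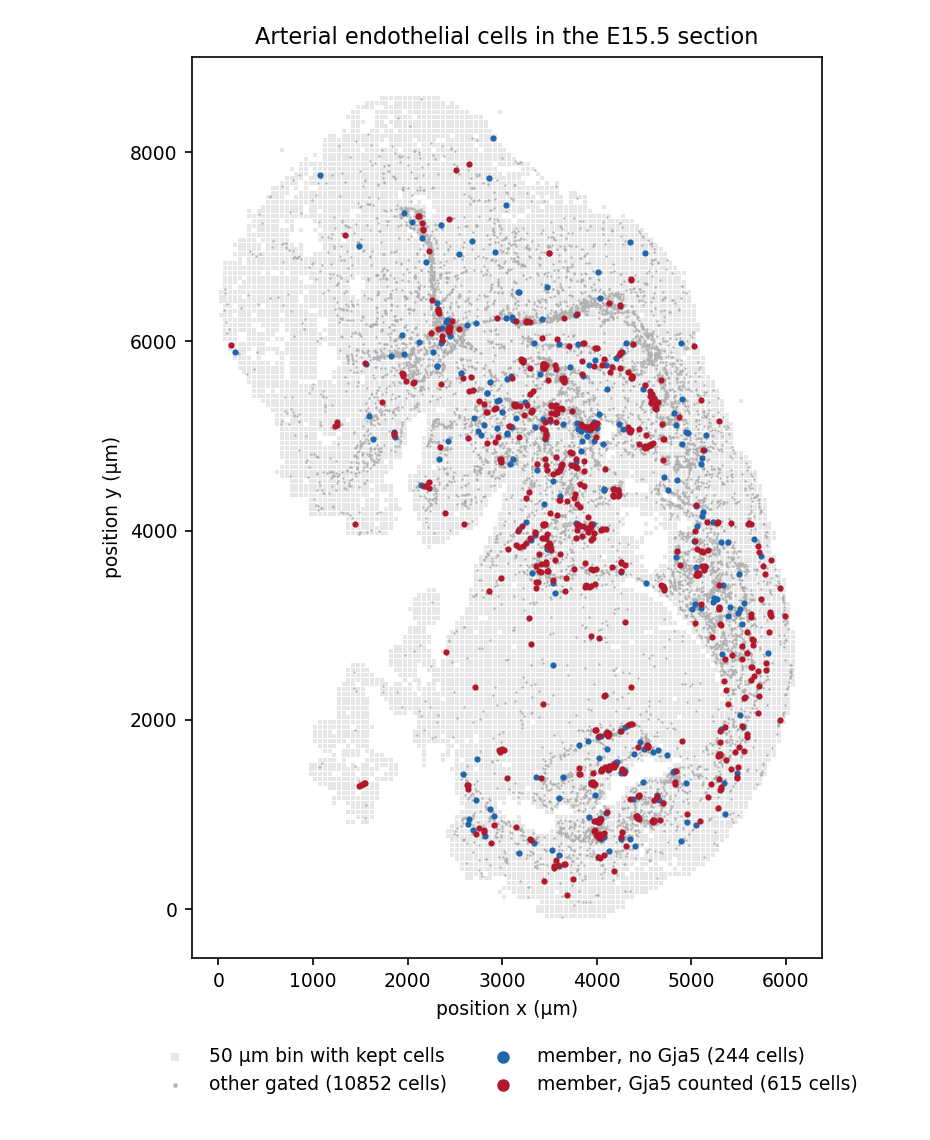
Positions of the 859 arterial cells in the E15.5 section, in micrometres, over the other 10852 gated endothelial cells and over 50 µm bins that hold kept cells. Red points are the 615 arterial cells with a Gja5 count and blue points the 244 without. Red points form short rows in many places, and few arterial cells lie at the top of the section.

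Outside the rule, 256 of the 285 genes had enough counts to compare (at least 50 counts, found or expected, in the arterial cells, and a total above the mean blank code), and 17 were at least 2-fold higher in the arterial cells with an interval that excludes 1. This is 6.64% of the genes compared. The median fold over all genes compared was 0.854. Of the 22 arterial genes in the panel outside the rule, 20 could be compared, 10 were higher by this measure and 0 lower, and their median fold was 2.12. The list was drawn up with earlier results of these data known and is not independent evidence. Sema3g, a secreted semaphorin of arterial endothelium, stood at 21.1 per 10000 against 4.86 (4.34-fold, 3.83 to 4.91). Depp1, a FOXO target first described in decidua, stood at 33.0 against 7.76 (4.25-fold, 3.85 to 4.68). All 17 genes were also at least 2-fold higher than in the 3124 venous-type cells. These are gated cells with a sum of at least 3 over Nr2f2, Nrp2, Ephb4, Aplnr and Vwf, at least 2 of these detected. They also had no count of Gja4, Gja5 or Dll4 and a brain transporter sum below 3. They are thus part of the other gated cells and were chosen to lack arterial counts. In this comparison 26 genes (10.3% of 253 compared) were at least 2-fold higher and 13 (5.14%) at least 2-fold lower.

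Among Notch pathway genes a ligand, a receptor and a target passed 2-fold. The ligand Jag1 stood at 72.6 per 10000 in arterial cells and 25.8 in the other gated cells (2.82-fold, 2.65 to 3.003). Notch4, a receptor of endothelial cells, stood at 47.9 against 18.3 (2.61-fold, 2.42 to 2.82), and Heyl, a Notch target, at 93.4 against 40.6 (2.30-fold, 2.18 to 2.43). Notch1, the other receptor in the panel, was higher by less, at 146 against 81.1 (1.80-fold, 1.73 to 1.88). Dlk1, an atypical ligand without the canonical receptor-binding domain, differed little, at 162 against 154 (1.06-fold, 1.02 to 1.10). Thus 3 of 5 pathway genes outside the rule passed 2-fold and 0 were lower.

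Heyl was also high around these cells. Among non-gated cells within 20 µm of an arterial cell it was 2.29-fold above non-gated cells within 20 µm of another gated cell, nearly the same as the fold within the gated cells themselves. For Jag1 the corresponding ratio was 1.30, for Notch4 1.11, for Sema3g 1.38 and for Unc5b 0.787. Heyl was not alone in this. Of the 17 higher genes, at least 6, Heyl among them, had a ratio above the 1.38 of Sema3g. For 0 of the 17 was the ratio above the fold within the gated cells. The part of counts from cells next door in the values of Heyl and the other higher genes was not tested.

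Guidance receptors and ligands differed by gene. Unc5b, a netrin receptor of arteries and sprouting vessels, stood at 65.6 per 10000 against 17.8 (3.68-fold, 3.44 to 3.94). Ephb4, the ephrin receptor of veins, was at 77.5 against 74.6 (1.04-fold, 0.982 to 1.10). Nrp2, a neuropilin of veins and lymphatic vessels, was lower, at 32.8 against 49.8 (0.660-fold, 0.605 to 0.718). Against the venous-type cells, which Ephb4 and Nrp2 helped to choose, the folds were 0.717 and 0.417.

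Genes of the flow-responsive ALK1 branch were higher, but none passed 2-fold. Acvrl1, which encodes ALK1, stood at 27.2 per 10000 against 16.1 (1.69-fold, 1.53 to 1.86), and its target Tmem100 at 9.09 against 5.35 (1.70-fold, 1.43 to 2.01). Among transcription factors, Mecom was 3.01-fold higher (2.65 to 3.40), at 19.1 against 6.35. Epas1, the hypoxia-inducible factor HIF-2 alpha that is abundant in endothelium, stood at 159 against 82.5 (1.93-fold, 1.86 to 2.01). Sox17, an arterial SOX factor, was 2.41-fold higher (1.86 to 3.09) on 78 counts. Its total in the section lay below the mean blank code, so it was not counted among the genes compared. The same held for Gkn3, an arterial gene of the brain, at 1.26-fold (0.906 to 1.73).

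Secreted factors and surface genes of the arterial wall followed. Edn1, the vasoconstrictor endothelin-1, stood at 10.2 per 10000 against 3.92 (2.61-fold, 2.21 to 3.09), a value that fell below 2-fold in each comparison away from mural cells or their counts given below. Vegfc, a growth factor for lymphatic and venous vessels, was at 12.1 against 4.86 (2.499-fold, 2.14 to 2.91), and Igfbp3, which binds insulin-like growth factors, at 40.3 against 16.4 (2.45-fold, 2.26 to 2.67). Tm4sf1, an endothelial tetraspanin-like protein, was 2.54-fold higher (2.13 to 3.01), Ptprb, the endothelial phosphatase VE-PTP, 2.43-fold (2.18 to 2.70), and Sat1, an enzyme of polyamine breakdown, 2.32-fold (1.85 to 2.88). The latent TGF-beta binding protein Ltbp4 reached 1.78-fold (1.59 to 1.98). Foxs1, a forkhead gene of mural cells, was 2.14-fold higher and Rgs5, a regulator of G-protein signalling used as a pericyte marker, 2.04-fold.

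Several genes usually linked to arteries did not differ at this depth of counting or differed little. Cxcl12, a chemokine of arterial endothelium, stood at 52.9 per 10000 against 55.4 (0.953-fold, 0.890 to 1.02), Dkk2 at 20.5 against 20.4 (1.01-fold, 0.899 to 1.12) and Mgp, an inhibitor of calcification, at 10.9 against 9.80 (1.11-fold, 0.955 to 1.30). Fbln5, an elastic fibre protein, was 1.34-fold higher (1.21 to 1.49). Cxcr4, the receptor of Cxcl12, was 1.90-fold higher (1.45 to 2.46) on 70 counts, and Ackr3, which removes Cxcl12, was lower at 0.799-fold (0.678 to 0.937). The chemokine list, which also holds Aplnr, had 0 of 4 genes higher and 1 lower, Aplnr.

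Among vein genes, Aplnr, the apelin receptor of veins and sprouting capillaries, was the 1 that passed 2-fold, at 28.8 per 10000 against 70.4 (0.408-fold, 0.373 to 0.447). It was detected in 20.6% of arterial cells and 41.1% of the other gated cells, and in 9.03% and 25.1% after each cell was thinned to 50 counts. Nr2f2, the factor that sets vein identity, stood at 10.99 against 14.3 (0.767-fold, 0.659 to 0.889), and at 1.16-fold among cells with no smooth muscle cell within 50 µm, so its direction was not stable. Vwf, a clotting factor carrier of large vessels, was higher at 9.15 against 5.31 (1.72-fold, 1.45 to 2.04). The venous list thus had 0 of 5 genes higher and 1 lower, with a median fold of 0.767.

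**Figure D2:**
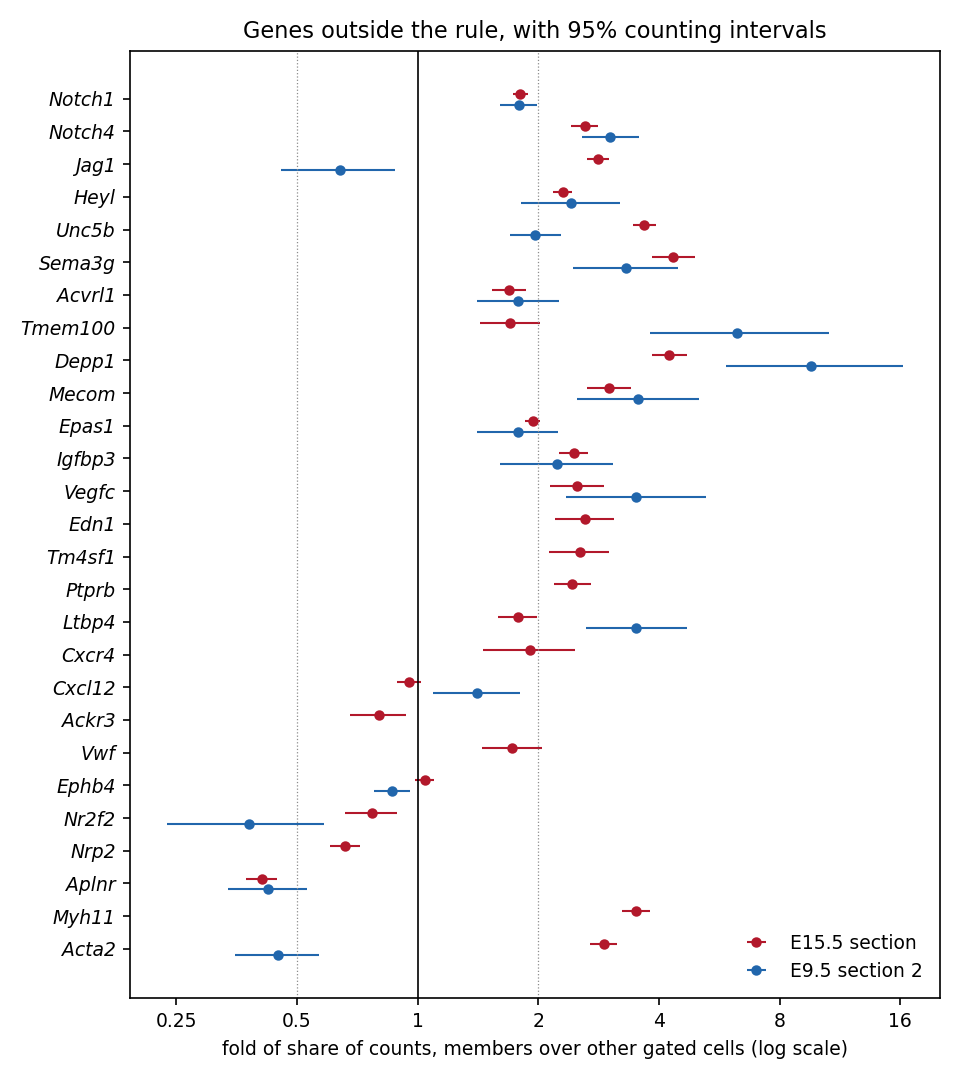
Ratio of the share of counts in arterial cells to that in the other gated cells, on a log axis, for 27 genes outside the rule, with 95% counting intervals; red is the E15.5 section and blue E9.5 section 2, shown where the gene had enough counts. Sema3g, Depp1 and Unc5b lie farthest to the right at E15.5 among endothelial genes, Aplnr lies below 0.5 at both stages, and Jag1 and Acta2 lie on opposite sides of 1.

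Shares of cells with a count kept their order after thinning. Thinned to 50 counts, with 17 arterial and 876 other gated cells left out as shallower, Sema3g was detected in 11.2% of arterial cells and 2.47% of the others (28.2% and 7.03% before thinning). The thinned shares were 25.5% and 7.69% for Unc5b (52.3% and 17.8% before), 25.2% and 10.8% for Jag1 (48.7% and 26.1%), and 50.4% and 30.4% for Epas1 (80.1% and 51.8%).

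The higher genes were compared by place. The section was cut into squares of 1500 µm, and 10 squares held at least 30 arterial cells, 782 in all. Here higher and lower mean a fold above or below 1. Of the 17 genes, 13 were higher in arterial cells in each of the 10 squares. The 17 were called on the pooled cells of this section, which include those of the squares. These values thus describe place and are not independent support. The Sema3g fold ranged from 2.22 to 6.72 with a median of 4.43, Unc5b from 1.98 to 6.02 with a median of 3.04, Notch4 from 1.51 to 3.72 and Heyl from 1.48 to 3.11. Edn1 was higher in 7 of the 10 squares, Tm4sf1 and Myh11 in 8 and Foxs1 in 9. Of the 19 genes that were lower over the whole section, described further on, 2 were lower in each of the 10 squares, Slc7a1 and Aplnr, the latter at 0.215 to 0.709.

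Capillary, lymphatic and endocardial genes were compared in the same way. Of 8 capillary and tip cell genes 0 passed 2-fold in either direction (median 1.04), with Gpihbp1, the capillary anchor of lipoprotein lipase, at 1.48-fold and Esm1, a tip cell proteoglycan, at 1.43-fold. Of 4 lymphatic genes 0 passed (median 0.868), with Prox1, the lymphatic fate factor, at 0.985-fold. Of 6 endocardial genes 0 passed (median 1.19), and Npr3, the clearance receptor of natriuretic peptides, came nearest at 1.94-fold (1.70 to 2.21). The basement membrane genes Col4a1 and Col18a1 were 1.56-fold (1.53 to 1.59) and 1.74-fold (1.63 to 1.87) higher, at 781 against 500 and 55.4 against 31.8 per 10000. Among 13 genes of the cell division programme 12 lay below 1 and 0 passed 2-fold, with a median of 0.823 near the 0.854 of all genes. Top2a, needed to separate chromosomes, stood at 72.0 against 91.4 (0.788-fold, 0.743 to 0.835). Btg2, which slows division, stood at 33.1 against 18.3 (1.82-fold, 1.66 to 1.98), while the cell cycle inhibitor Cdkn1a was near equal at 1.13-fold (1.02 to 1.25).

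In the other direction 19 genes were at least 2-fold lower, 7.42% of the genes compared, and the rule itself had a hand in them. Of 6 brain endothelial genes 4 were lower, led by Spock2, a proteoglycan of brain vessels, at 12.3 per 10000 against 59.7 (0.205-fold, 0.178 to 0.235), and Slc7a5, the large neutral amino acid transporter, at 9.78 against 30.3 (0.322-fold, 0.275 to 0.376). The rule excluded cells rich in brain transporters from the arterial cells only. With the 838 brain-type cells left out of the comparison as well, 15 genes (5.91% of 254) were lower, 11 of them among the 19, and 1 of the 6 brain genes remained, Spock2 at 0.371-fold. Slc7a5 then stood at 0.661-fold, Slc7a1 at 0.744-fold, the reelin and apolipoprotein receptor Lrp8 at 0.531-fold and the radial glia fatty acid binding protein Fabp7 at 0.577-fold. The higher side gained genes by this change: 21 genes (8.27%) were higher, with all 17 among them, and Epas1 reached 2.30-fold and Cxcr4 2.13-fold.

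Lower genes that did not follow the brain-type cells included Stra6, the receptor of retinol binding protein, at 9.15 per 10000 against 37.8 (0.242-fold, 0.206 to 0.283, and 0.270-fold without the brain-type cells) and Pltp, the phospholipid transfer protein, at 8.57 against 31.2 (0.275-fold and 0.332-fold). The 3 neuronal genes of the panel were lower too, with Stmn2 at 0.301-fold (0.280 to 0.324) and Tubb2b at 0.306-fold (0.272 to 0.344). The same genes were lower in the tissue around arterial cells: among non-gated cells within 20 µm Stmn2 was at 0.388-fold and Tubb2b at 0.346-fold. Their part in the lower values was not tested. Aplnr did not show this, with a ratio of 0.855 in those surroundings.

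Arterial cells near the threshold had levels close to those of cells just outside it. Brain-type cells are left out here. In the 386 gated cells with 2 counts in a single gene of the 3, Sema3g stood at 8.99 per 10000, Unc5b at 34.1 and Aplnr at 59.4. In the 233 arterial cells with a sum of exactly 2, in 2 genes, they stood at 8.68, 33.4 and 50.1. The levels then climbed with the sum. In the 135 cells with a sum of 10 or more Sema3g stood at 43.3, Unc5b at 116, Jag1 at 169, Epas1 at 281 and Edn1 at 23.7, while Aplnr stood at 3.51 and Nrp2 at 15.8. In the 7441 gated cells with no count of the 3 genes the same levels were 3.92 for Sema3g, 13.1 for Unc5b, 24.8 for Jag1, 65.6 for Epas1, 3.77 for Edn1, 68.4 for Aplnr and 49.9 for Nrp2. Jag1 showed no step at the threshold, at 25.4 just outside and 24.7 just inside, and was higher only from sums of 3 or 4 on, at 43.1. Cxcl12 did not climb throughout. It stood at 60.3 with no count, was lower at 42.7 (37.0 to 48.9) at sums of 3 or 4, and reached 67.3 (58.9 to 76.6) at sums of 10 or more. The cells with high sums were also deeper, with a median of 265 counts against 185 at a sum of 2.

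**Figure D3:**
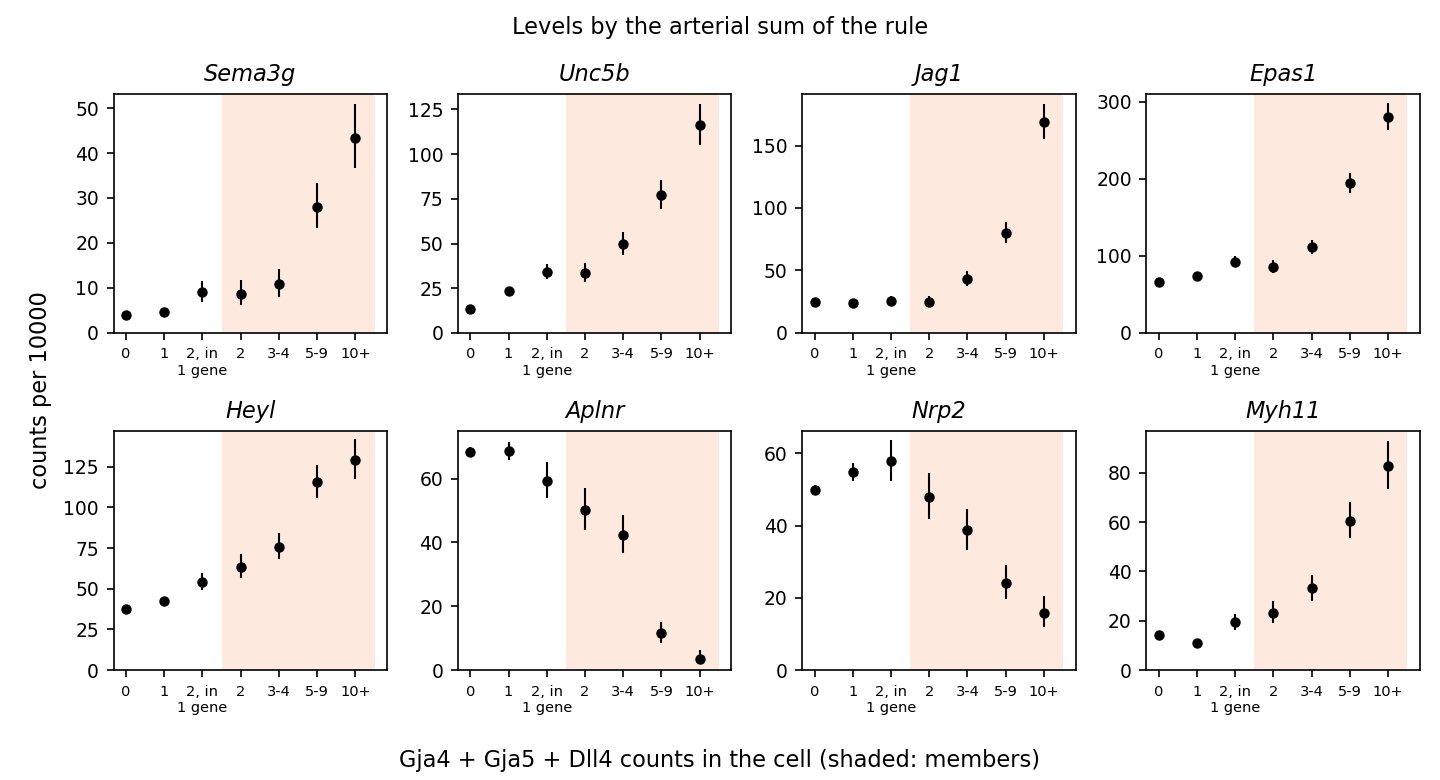
Counts per 10000 of 8 genes outside the rule, with 95% counting intervals, in gated cells grouped by their summed counts of Gja4, Gja5 and Dll4; shading marks the arterial cells, and brain-type cells are left out. Sema3g, Unc5b, Jag1, Epas1, Heyl and Myh11 are highest at sums of 10 or more, and Aplnr and Nrp2 are lowest there.

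The arterial cells were not uniform, and many genes differed by Gja5, though not alike in every combination of rule genes, as given below. The 615 cells with a Gja5 count and the 244 without were compared over 230 genes, and 16 genes (6.96%) were at least 2-fold higher and 25 (10.9%) at least 2-fold lower in cells with Gja5. Jag1 stood at 89.5 per 10000 against 32.9 (2.72-fold, 2.32 to 3.22) and Sema3g at 25.8 against 10.05 (2.57-fold, 1.91 to 3.51). Heyl, Edn1 and Vegfc were also more than 2-fold higher, at 2.03, 2.27 and 2.13-fold. Receptors differed less in this split. Unc5b stood at 65.9 against 64.7 (1.02-fold, 0.895 to 1.16), Notch1 at 149 against 138 (1.08-fold, 0.991 to 1.18), Notch4 at 49.8 against 43.3 (1.15-fold, 0.985 to 1.35) and Acvrl1 at 27.5 against 26.5 (1.04-fold, 0.850 to 1.28). By the rule every cell without Gja5 held Dll4, while 281 cells with Gja5 did not. Among cells that held both Gja4 and Dll4, Unc5b stood at 104 with Gja5 and 64.7 without, and Notch4 at 73.3 and 43.3.

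Both smooth muscle genes were higher with Gja5, as was 1 of 7 elastic fibre genes, Eln, and 0 of 3 basement membrane genes. The actin Acta2 stood at 57.7 per 10000 against 16.04 (3.60-fold, 2.86 to 4.57), the LIM protein Pdlim3 at 30.2 against 10.4 (2.90-fold, 2.17 to 3.93), the smooth muscle myosin Myh11 at 57.8 against 22.8 (2.54-fold, 2.08 to 3.11) and Eln, elastin, at 56.0 against 21.8 (2.56-fold, 2.10 to 3.16). Npr3, Cdkn1a, the zinc finger gene Casz1 and the cardiac transcription factor gene Gata4 were 2.48, 2.56, 2.45 and 2.39-fold higher. These genes rested on place to different degrees. Without the square of highest Tbx20, a cardiac transcription factor, Gata4 was at 0.933-fold while Jag1 was at 2.84 and Sema3g at 2.70. Among arterial cells with no smooth muscle cell within 50 µm, Eln was at 0.836-fold and Cdkn1a at 1.32, while Jag1 was at 2.08, Sema3g at 2.62 and Gata4 at 5.90. In the square of highest Tbx20, 19.4% of the non-gated cells had a Gja5 count and 85.3% of the 116 arterial cells were Gja5-positive.

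By list, 2 of 5 venous, 2 of 4 lymphatic, 2 of 4 brain endothelial and all 3 neuronal genes were lower in cells with Gja5, with median folds of 0.670, 0.561, 0.427 and 0.273 beside 0.918 over all genes compared. The highest venous gene was at 1.68-fold and the highest lymphatic gene at 1.02. Of 6 endocardial genes 3 were higher with Gja5 and 0 lower, with a median of 1.95 and folds from 0.664 to 2.48. Aplnr stood at 17.1 per 10000 against 56.2 (0.304-fold, 0.254 to 0.365), and Nrp2 at 19.6 against 64.2 (0.305-fold, 0.257 to 0.361). Lyve1, a hyaluronan receptor of lymphatic vessels and macrophages, stood at 5.32 against 24.9 (0.214-fold, 0.156 to 0.290). Spock2 was at 0.186-fold, Stmn2 at 0.265, and the sodium channel genes Scn7a and Scn3a at 0.272 and 0.273. Arterial cells without Gja5, all with Gja4 and Dll4, thus held Aplnr at 56.2 against 70.4 in the other gated cells, and Nrp2 at 64.2 against 49.8.

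The 4 combinations of rule genes set this out further. Cells with all 3 genes had the highest Sema3g (38.8 per 10000), Unc5b (104), Jag1 (121) and Notch4 (73.3). Cells with Gja4 and Gja5 had Heyl at 135, Acta2 at 76.9 and Aplnr at 6.71, and cells with Gja4 and Dll4 had Unc5b at 64.7 and Heyl at 54.1. The 116 cells with Gja5 and Dll4 but no Gja4 stood near the other gated cells for several genes, with Jag1 at 28.7 against 25.8, Heyl at 42.3 against 40.6 and Mecom at 5.98 against 6.35. They stood near the cells with Gja4 and Dll4 for Sema3g (9.57 against 10.05) and Aplnr (53.8 against 56.2). For Acta2 (37.1 against 16.04) and Nrp2 (35.1 against 64.2) these 2 classes differed. Among arterial cells with a Gja4 count, 499 with and 244 without Gja5, the folds were 3.20 for Jag1, 2.98 for Sema3g and 3.93 for Acta2.

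**Figure D4:**
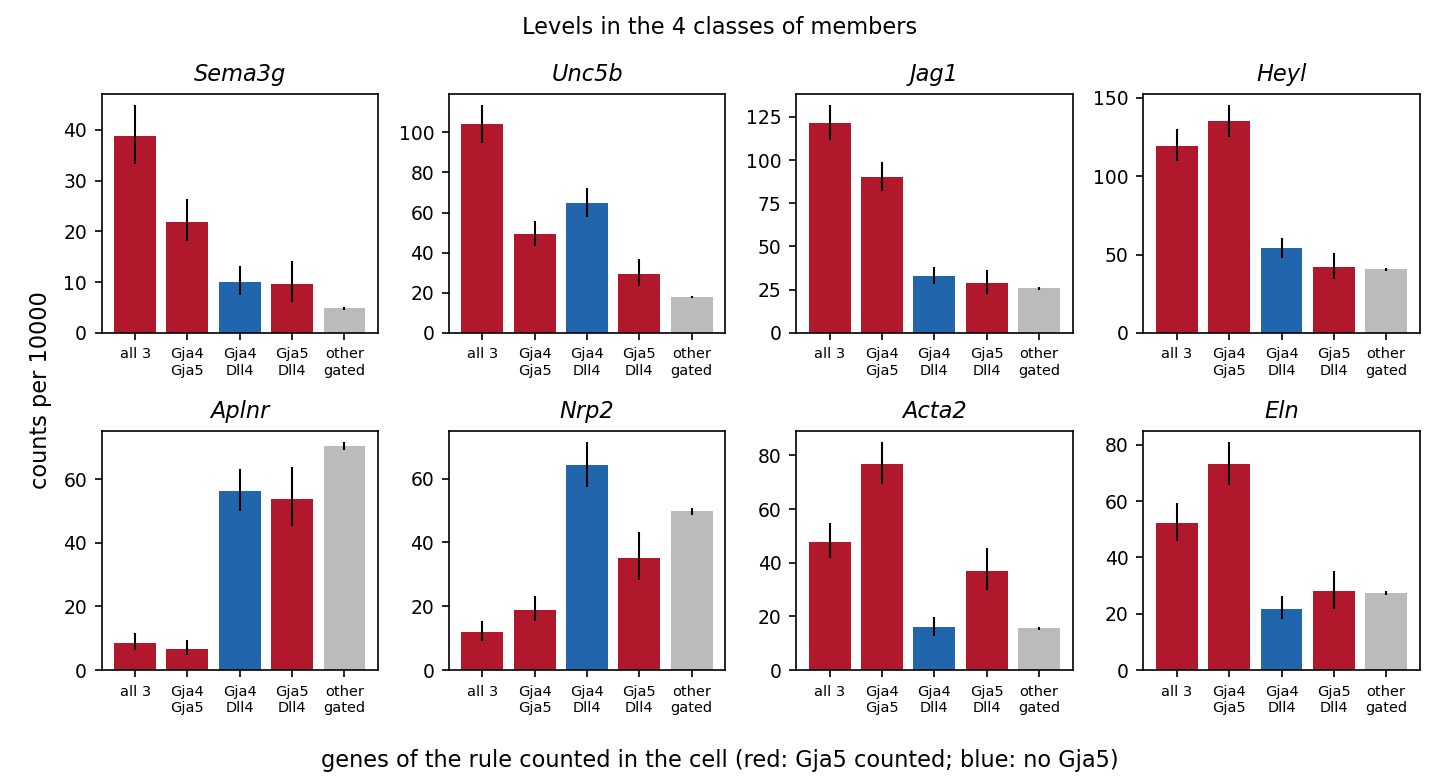
Counts per 10000 of 8 genes outside the rule in arterial cells grouped by which of Gja4, Gja5 and Dll4 they held, and in the other gated cells (grey), as bars from 0 with 95% counting intervals. Sema3g, Unc5b and Jag1 are highest with all 3 genes, Acta2 and Eln with Gja4 and Gja5, and Nrp2 with Gja4 and Dll4.

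Position was not used by the rule. The nearest other gated cell was arterial for 29.5% of arterial cells (26.4 to 32.6%) and for 5.50% of the other gated cells (5.08 to 5.95%). Counted only from 15 µm outward, where pieces of 1 cell are less likely to pair, the shares were 23.5% and 6.05%. Joining arterial cells whose centres lay within 30 µm gave 395 single cells and 24 groups of 5 or more, the largest of 14 cells. Groups of 5 or more held 187 cells, which had Jag1 at 185 per 10000 against 27.3 in single cells, Heyl at 182 against 54.2, Edn1 at 27.5 against 4.12 and Sox17 at 9.08 against 2.47. Sema3g was at 32.3 against 13.5 and Unc5b at 85.7 against 54.4, while Igfbp3 stood at 28.6 in these groups, 45.0 in groups of 2 to 4 and 42.7 in single cells. Gja5 was detected in 90.4% of grouped and 57.5% of single cells, and Dll4 in 57.2% and 75.7%. Smooth muscle genes differed as well. Myh11 stood at 117 per 10000 in groups of 5 or more and 20.7 in single cells, Acta2 at 83.8 and 32.5, and Eln at 108 and 20.1. A smooth muscle cell, as defined below, lay within 20 µm of 56.1% and 30.1% of them. Its part in the values of these groups was not tested.

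Smooth muscle lay closer to arterial cells than to the others. A smooth muscle cell, with at least 3 counts over Acta2 and Myh11 and an endothelial sum below 3, had its centre within 20 µm of 38.6% of arterial cells (35.4 to 42.0%) and of 14.8% of the other gated cells (14.1 to 15.47%). The median distances were 28.5 and 75.7 µm. With Gja5 the share was 45.9% (41.9 to 49.9%) and without it 20.5% (15.6 to 26.1%), and it was 55.6% at arterial sums of 10 or more. Venous-type cells had 13.2% and brain-type cells 2.15%. For all mural cells, which add pericytes, the shares were closer, at 63.0% (59.7 to 66.2%) of arterial cells and 48.2% (47.3 to 49.2%) of the others.

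**Figure D5:**
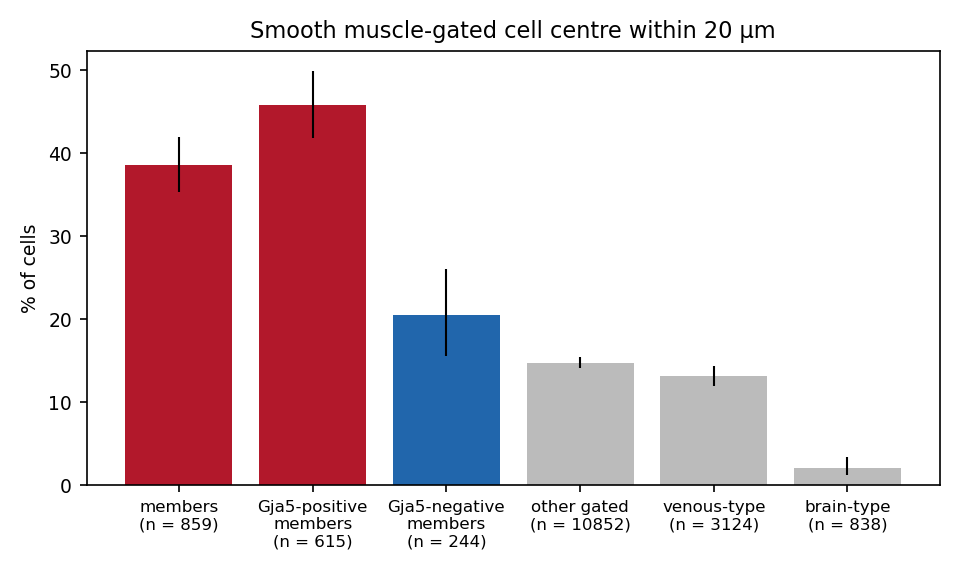
Percentage of cells with the centre of a smooth muscle cell within 20 µm, with exact 95% intervals, for arterial cells, those with and without a Gja5 count, and other kinds of gated cells in the E15.5 section. Arterial cells with Gja5 reach 45.9%, those without lie at 20.5% (15.6 to 26.1%) and the other gated cells at 14.8%. The other gated cells include the brain-type cells, at 2.15%. The intervals cover counting error only, and the difference was not tested.

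Smooth muscle genes were counted inside arterial cells as well. Myh11 stood at 47.4 per 10000 against 13.5 in the other gated cells (3.51-fold, 3.24 to 3.804) and Acta2 at 45.3 against 15.6 (2.91-fold, 2.68 to 3.15), so both smooth muscle genes of the panel were higher. Their summed level was 92.7 in arterial cells, 29.1 in the other gated cells and 226 in mural cells. Of 7 pericyte genes Rgs5 was higher and Vtn lower by 2-fold, and the summed levels were 182, 151 and 235. This changed with the brain-type cells, which held Rgs5 at 192 per 10000. With them left out of the comparison 2 of the 7 were higher and 0 lower, at folds from 0.548 to 3.14. Myh11 was at 85.8 in the 332 arterial cells with a smooth muscle cell within 20 µm and at 10.4 in the 307 with none within 50 µm.

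Without a smooth muscle cell within 50 µm were 307 arterial and 6639 other gated cells. Between these, 19 of 185 genes compared were higher, with 14 of the 17 among them. Sema3g was at 4.21-fold, Unc5b at 4.41, Depp1 at 5.08, Notch4 at 2.54, Heyl at 2.41 and Jag1 at 2.19. Edn1 was at 1.66-fold. Fbln5, Gkn3 and Cxcl12, at 1.34, 1.26 and 0.953-fold over all cells, changed side, at 0.985, 0.915 and 1.06-fold. Among the 482 arterial and 8761 other gated cells without a count of Acta2 or Myh11, 10 of 211 genes compared were higher. Of these, 9 were among the 17. There Sema3g was at 3.78-fold, Unc5b at 3.88 and Notch4 at 2.74, but Jag1 was at 1.56, Heyl at 1.72 and Edn1 at 1.97. With no mural cell within 20 µm Edn1 was at 1.19-fold, and without any mural gene count at 1.54. The part of smooth muscle counts in the Jag1 and Heyl values was not tested.

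Macrophage, mesenchyme and red cell markers did not pass 2-fold on the higher side. Of 6 macrophage genes 0 passed 2-fold, with summed levels of 32.0 per 10000 in arterial cells, 46.1 in the other gated cells and C1qa at 5.06 against 5.05. Of 4 mesenchyme genes 0 passed, with sums of 154.8 and 255, and the erythroid gene Car2 was at 0.479-fold. Counts from each of these types were present in both groups of cells.

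The share of arterial cells among gated cells varied with place. Over the 17 squares with at least 100 gated cells it ranged from 0.909% to 15.45%, with a median of 5.05%. The square at 15.45% had non-gated cells with Stmn2 at 31.9 per 10000 and Car2 at 573, and the next, at 14.6%, was the one with the highest Tbx20. The lowest share, 1 of 110 cells, was in a square with Stmn2 at 834, and 28.2% of its gated cells were brain-type. Brain-type cells cannot be members. Without the brain limit this square would hold 1.82% arterial cells, and the largest of the neuron-rich squares, with 1158 gated cells, 8.72% in place of 4.23%. The 104 cells that met the arterial sum but were brain-type had Sema3g at 21.6 per 10000, Notch4 at 48.8 and Epas1 at 271. These were close to or above the arterial cells, as was Sox17 at 6.27 on 18 counts. Epas1 stood at 208 in all brain-type cells. Several other genes were below the arterial cells, with Depp1 at 10.8 against 33.0, Igfbp3 at 6.97 against 40.3 and Jag1 at 38.3 against 72.6. Heyl was at 61.0 against 93.4, Unc5b at 47.0 against 65.6 and Mecom at 10.5 against 19.1. The 104 cells had Rgs5 at 274, Aplnr at 83.6 and Myh11 at 3.83. Of these cells 0.962% had a smooth muscle cell within 20 µm.

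Applied to the E9.5 embryos, the rule found 0 arterial cells among 12 gated cells of section 1 (0 to 26.5%) and 81 among 316 in section 2 (25.6%, 20.9 to 30.8%). Section 2 gave 13 genes at least 2-fold higher (12.3% of 106 compared) and 15 lower (14.2%). Of 105 genes compared at both stages, 10 were higher at E15.5 and 12 at E9.5, with 7 in common (70% and 58.3% of each list): Sema3g, Depp1, Mecom, Notch4, Vegfc, Igfbp3 and Heyl. Aplnr was lower at both stages, at 0.424-fold (0.336 to 0.529) in E9.5 section 2. Tmem100 and Ltbp4 were 6.27-fold (3.79 to 10.6) and 3.50-fold (2.63 to 4.68) higher at E9.5, against 1.70 and 1.78 at E15.5, and Nr2f2 was at 0.379-fold (0.237 to 0.582) against 0.767. The difference between the stages was not tested.

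Areas of low Gnas held 42 of the 81 arterial and 76 of the 235 other gated cells of E9.5 section 2. Sema3g, Depp1, Mecom, Notch4, Vegfc and Igfbp3 were higher within both kinds of area. In areas of low and of ordinary Gnas, Sema3g was at 3.85 and 2.12-fold and Notch4 at 4.23 and 2.10-fold. Vegfc was at 2.31 and 4.25-fold and Igfbp3 at 2.23 and 1.82-fold. Heyl was at 1.08-fold (0.741 to 1.56) and 5.79-fold (3.55 to 9.61), Epas1 at 5.38 and 1.12-fold, and Unc5b at 4.25 and 1.24-fold, so these values differed with the area the cells came from. Ltbp4 was at 1.68-fold (0.708 to 3.91) and 4.41-fold (3.23 to 6.03), and Tmem100 at 6.85 and 6.56-fold.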

How the data were processed

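MERFISH counts were deposited by the authors as 1 table per section of counts per segmented cell, with 296 genes and 19 blank codes. Scanpy and Seurat are named without version in the submitters' processing notes, and how cells were segmented is not given in the sources used here. Cell positions, volume and summed stain intensity were deposited beside the counts; per the file headers the intensity holds DAPI and PolyT, and position units are unnamed and were read as micrometres.

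Cells with under 10 gene counts were left out, and no doublet caller was run. Counts were summed over cells with python 3.11.15, numpy 2.4.6, scipy 1.17.1 and pandas 2.3.3. Folds of summed shares carry exact conditional binomial intervals and shares of cells exact Clopper-Pearson intervals, both covering counting error only; the interval code was checked on simulated data. Thinning drew 50 counts per cell. The text names the 15 highest and 10 lowest folds, the panel's arterial, Notch, ALK1, chemokine, guidance and venous genes, and the 10 highest and 5 lowest folds by Gja5. Genes outside this rule, such as Top2a, Btg2 and C1qa, are examples from the other lists, and a few more Gja5 folds (Heyl, Edn1, Vegfc, Aplnr and Nrp2) were named after their values were seen. 1 gene that the naming rule selects is not reported here. Members and lists were chosen with earlier results of these data known. Smooth muscle, area and brain-type alternatives were partly added after seeing the data.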

Additional observations from a re-analysis of the deposited data

Results flagged for a closer look

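Acta2, Jag1 and Dlk1 lay on opposite sides of 1 at the 2 stages, and the difference between the stages was not tested. Only E9.5 section 2 held arterial cells at the early stage, so each stage is 1 section. Acta2 was 2.91-fold higher in arterial cells at E15.5 and at 0.449-fold (0.351 to 0.568) in E9.5 section 2. Jag1 was 2.82-fold higher at E15.5 and at 0.638-fold (0.455 to 0.879) at E9.5. Dlk1 was at 1.06-fold (1.02 to 1.10) at E15.5 and at 0.299-fold (0.243 to 0.364) at E9.5. In E9.5 areas of low and of ordinary Gnas, Dlk1 was at 0.266 and 0.333-fold, Acta2 at 0.356 (0.0383 to 1.63) and 0.534-fold, and Jag1 at 1.13 (0.487 to 2.5) and 0.641-fold. The low-Gnas interval of Jag1, on 11 and 19 counts, holds the value of the other areas. The side of Dlk1 at E15.5 was not stable: it was at 0.984-fold without brain-type cells, 0.935 at an arterial sum of 3, 0.999 against cells without arterial counts and 0.866 in cells with 50 to 200 counts.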

How the results depend on the processing

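Across the other settings tried, not counting those given here, the number of genes higher in arterial cells was 12 to 24 and lower 14 to 25. Restricted to cells without any mural gene count the counts were 10 and 8, with 5 of the 17 and 5 of the 19 shared; without Acta2 or Myh11 counts 10 were higher, and with no mural cell within 20 µm 9 were lower. Subtracting the blank level gave 40 lower. A 1.5-fold limit gave 37 and 53, a 3-fold limit 5 and 6. The arterial share of gated cells was 9.65% at an endothelial sum of 5, 5.35% at an arterial sum of 3, 6.16% in cells with 50 to 200 counts, and 13.0% with 1 arterial gene sufficient. A mural cell lay near 24.1% of arterial and 14.4% of other gated cells at 10 µm, 86.4% and 80.8% at 40 µm, 45.5% and 27.6% with a mural sum of 5, 59.6% and 45.6% in cells with 50 to 200 counts, and 38.6% and 14.8% for smooth muscle alone. The nearest gated cell was arterial for 23.5% and 6.05% from 15 µm outward, and for 4.66% of the other gated cells with 50 to 200 counts. For the Gja5 comparison, cells without a mural count gave 5 higher and 6 lower genes, and a 1.5-fold limit 31 and 47. Folds of called genes that crossed 1 were Eln at 0.836 with no smooth muscle cell within 50 µm, Gata4 at 0.933 without the square of highest Tbx20, Spock2 at 1.39 without mural counts, and Jag1 at 1.13 in the E9.5 areas of low Gnas; the cause was not tested. Among genes under 2-fold, 9 crossed 1 in at least 1 setting: Ackr3 (up to 1.19), Cxcl12, Dkk2 (down to 0.555), Dlk1, Ephb4, Fbln5 (down to 0.789), Gkn3 (down to 0.356), Mgp (down to 0.852) and Nr2f2 (1.16). Settings that keep fewer cells also compare fewer genes, 114 in place of 256 without mural counts. No paired analysis was possible because the stages share a replicate number only and the comparisons lie within a section.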
